A study of Mus musculus with 12 samples.

Results

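The 9 genes described here encode transcription factors that build and maintain microglia and other macrophages: Spi1, Irf8, Runx1, Cebpa, Cebpb, Mef2a, Mef2c, Maf and Sall1. They were chosen by name, and every array probe whose accession maps to one of them was read, which gave 9 of the 23575 named genes on the arrays and 16 distinct probes. RNA came from brain cells enriched magnetically for CX3CR1 and labelled microglia, from male mice aged 8 weeks, and was hybridised to single-colour Agilent arrays. The 6 groups held 2 samples each. They were cells of mice labelled ZEB1-overexpression (OE) and wild type (WT) after tMCAO, of mice labelled ZEB1-knock down (KD) after tMCAO, and of OE, KD and WT mice before it, the last 3 labelled control. The tMCAO procedure is a stroke model in which the middle cerebral artery is blocked for a time and blood flow is then restored. ZEB1 is a zinc-finger repressor known for silencing epithelial genes. The labels do not state the time after occlusion, the promoter or cell type behind the overexpression, the means of the knock-down, or whether samples came from separate or pooled animals. The p-values therefore speak of the scatter among these arrays, and that scatter may be technical.

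Macrophage identity rests on a small set of factors. PU.1, encoded by Spi1, opens the enhancers of myeloid genes, and IRF8 binds many of them beside it. RUNX1 acts earlier, in the making of blood and yolk-sac progenitors from which microglia descend, and the C/EBP factors drive granulocyte and monocyte genes and the acute response to injury. MEF2 factors and MAF shape the mature macrophage, and SALL1, which depends on TGF-beta signalling in the brain, is known for holding microglia in their homeostatic state.

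Arrays of 2 designs were used, with OE and WT after tMCAO on a slide of 4 arrays and the other 4 groups on a slide of 8. Groups were tested only within a slide, which allowed 5 comparisons. Between the slides the array design and the group cannot be told apart, so levels on them are given side by side at most. A level is the log2 signal minus the array's 75th percentile, and it compares arrays at the same probe, not genes with each other. The scanner software marks spots as non-uniform or outlying, and the tests left these spots out. At the probe that stands for each gene, 16 of 36 member values on the 4-array slide were marked. On the 8-array slide 19 of 72 were. Marking there differed between groups over all spots. It took 18.2% to 23.7% of an array in KD after tMCAO and OE before it. In WT and KD before tMCAO it took 1.03% to 3.28%. The spread of the negative controls was also wider in the first 2 groups, at 9.20 to 14.4 against 4.59 to 6.65 units. All member probes, 11 on the 4-array slide and 13 on the 8-array slide, passed the filter on low signal. Zeb1 itself lay at -0.66 and -0.67 in KD arrays after tMCAO, -0.28 and -0.36 in OE arrays before it, -0.11 and -0.79 in KD arrays before it and -0.57 and -0.59 in WT arrays before it. Its level was thus not lower in the arrays labelled KD before tMCAO than in WT (log2 difference 0.13 ± 0.27 SE, limma adjusted p = 0.954), and after tMCAO OE and WT arrays overlapped at -0.08 and 0.56 against 0.12 and 0.41. On that slide both WT spots and the second OE spot of Zeb1 were marked. Before tMCAO both OE arrays lay above both WT arrays at the probe given. At a second Zeb1 probe they overlapped, at -0.42 and -0.31 (both marked) in OE against -0.40 and -0.64 in WT. There KD arrays lay at -0.98 and -0.81 (both marked) after tMCAO, against -0.24 and -0.68 before it. The members' directions below therefore follow the labels, not an established change of Zeb1.

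The tissue label was checked against marker genes. All 12 homeostatic microglia genes examined, such as P2ry12 and Tmem119, were well above background on all 12 arrays, and so were all 10 neuron, 8 astrocyte and 8 oligodendrocyte markers. The summed level of the neuron markers (log2 of the sum of their signals over the 75th percentile) was 5.29 to 5.94 over the smaller slide and 5.77 to 6.21 over the larger. The samples thus held RNA of other brain cells beside that of microglia. In such bulk samples, fewer cells of a type and less RNA per cell cannot be told apart.

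The knock-down genotype was the only one with samples before and after tMCAO on the same slide, so it is where the lineage factors can be followed through the occlusion. The myeloid-determining factors were higher after tMCAO. Runx1 was 5.14-fold higher, Irf8 3.39-fold and Cebpa 2.96-fold, each past an adjusted p of 0.05 in limma's test. Spi1 passed as well, with a fitted 5.66-fold that is not precise, since 1 of the 2 KD arrays before tMCAO was not well above background. Mef2a differed by -0.01 and did not pass, and no member fell. The other 4 members, Cebpb, Sall1, Maf and Mef2c, had both spots marked in KD arrays after tMCAO, so 4 of 5 members with a test rose. Of all 24646 genes tested 18.1% passed, 11.1% higher and 7.03% lower. With the marked spots kept, the same 4 of 9 members passed, all higher, where 16.6% of all genes passed, 10.1% higher and 6.47% lower. The median log2 difference of the members was 1.76 over the 5 and 0.60 over all 9 with marked spots kept, against 0.04 over all genes in both cases.

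Spi1 (chr2:91082374-91115759, mouse build GRCm38.p6 as in RefSeq, like all positions here) encodes PU.1. Its single probe lay at -3.27 and -4.41 in KD arrays after tMCAO, against -5.82 and -6.86 before it. The OE arrays before tMCAO lay at -6.20 and -5.27 and the WT arrays before tMCAO at -5.76 and -5.98. Both KD arrays after tMCAO thus stood above all 6 arrays taken before it, but 3 of those 6, namely both OE arrays and the second KD array, were not well above background. The log2 difference was 2.50 ± 0.53 (95% interval 1.22 to 3.79, n = 2 against 2, limma adjusted p = 0.0285).

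Irf8 (chr8:120736358-120756694) encodes a partner of PU.1 needed for microglia and monocytes. It lay at 1.11 and 0.25 in KD arrays after tMCAO, against -1.20 and -0.97 before it. The OE arrays before tMCAO lay at -0.99 and -0.83 and the WT arrays before tMCAO at -0.78 and -0.95. The 6 arrays before tMCAO sat within a narrow band, and the KD arrays after it stood above that band and further from each other than any other pair. The log2 difference was 1.76 ± 0.29 (95% interval 1.07 to 2.46, adjusted p = 0.0146 in limma's test).

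Runx1 (chr16:92601466-92826074) encodes the DNA-binding subunit of the core-binding factor and had 3 probes on this slide. The brightest lay at -1.35 and -2.19 in KD arrays after tMCAO, against -3.93 and -4.33 before it. It lay at -3.93 and -4.81 in OE arrays and -3.97 and -3.81 in WT arrays before tMCAO. Again both KD arrays after tMCAO were above all others. The log2 difference was 2.36 ± 0.39 (95% interval 1.43 to 3.30, limma adjusted p = 0.0147). The second probe lay at -3.05 and -3.44 in KD arrays after tMCAO, against -6.03 and -6.69 before it, where the lower value was not well above background. Its fitted log2 difference was 3.12 ± 0.40 (adjusted p = 0.00779 over all probes, limma). The third probe was well above background only in KD arrays after tMCAO, at -4.63 and -5.40, which is what carried it through the filter, so it is given as a bound of at least 3.14-fold higher.

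Cebpa (chr7:35119293-35121928) encodes C/EBP-alpha, a master regulator of the granulocyte and monocyte lines. It lay at -2.03 and -2.16 in KD arrays after tMCAO, against -3.69 and -3.63 before it, with OE arrays at -2.99 and -3.28 and WT arrays at -3.51 and -2.52 before tMCAO. The replicates of KD agreed closely at both times, while the WT arrays lay further apart, and the higher of them came nearest to the KD arrays after tMCAO. The log2 difference was 1.57 ± 0.32 (95% interval 0.79 to 2.34, limma adjusted p = 0.0260).

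Cebpb (chr2:167688915-167690432) encodes C/EBP-beta, a factor of the acute-phase and inflammatory response. It lay at 2.03 and 2.10 in KD arrays after tMCAO, both spots marked, against 1.40 and 1.52 before it. The OE arrays lay at 1.65 and 1.51 and the WT arrays at 1.39 and 1.84 before tMCAO. The KD arrays after tMCAO were thus the 2 highest of the 8. With marked spots kept the log2 difference was 0.60 ± 0.19 (95% interval 0.14 to 1.06), which did not pass (limma adjusted p = 0.0766).

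The MEF2 factors, known for responding to signals from the brain environment in microglia, did not pass the test. Mef2a (chr7:67231163-67376456) lay at 2.08 and, at a marked spot, 1.98 in KD arrays after tMCAO, against 2.08 and 2.09 before it. The OE arrays lay at 2.04 and 1.78 and the WT arrays at 1.91 and 2.10 before tMCAO. At that probe all 8 arrays thus lay between 1.78 and 2.10, and the log2 difference was -0.01 ± 0.19 (limma adjusted p = 0.983, 1 array against 2), with a 95% interval of -0.50 to 0.49. Its sign turned under 3 other scalings or background corrections, to 0.02, 0.07 and 0.07. Its second probe lay at -1.15 (marked) and -1.39 in KD arrays after tMCAO, against -0.87 and -1.01 before it, and between -1.43 and -1.16 in OE and WT arrays. There both KD arrays after tMCAO were below both before it, the second within the range of OE and WT and the first just above that range. The difference of -0.45 ± 0.19 (1 array against 2) did not pass. Mef2c (chr13:83504017-83667079) lay at 2.08 and 2.37 in KD arrays after tMCAO, both marked, against 2.59 and 2.56 before it. Its second probe lay at -0.94 and -0.82 in KD arrays after tMCAO, against 0.30 and -0.29 before it, and between -0.30 and -0.04 in OE and WT arrays. At that probe the KD arrays after tMCAO were the 2 lowest of the 8. Neither probe passed: with marked spots kept the first differed by -0.35 ± 0.15 (limma adjusted p = 0.159), and with them left out the second differed by -0.94 ± 0.32 (adjusted p = 0.117 over all probes, limma, 1 array against 2).

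Maf (chr8:115703253-115706894) encodes c-MAF, a factor of mature, anti-inflammatory macrophages. It lay at 0.94 and 0.88 in KD arrays after tMCAO, both marked, against 1.30 (marked) and 1.04 before it. Sall1 (chr8:89027242-89044162), the microglial identity factor, lay at -0.73 and -0.79, both marked, in KD arrays after tMCAO, against -0.79 and -1.21 before it. For Maf both KD arrays after tMCAO were below both before it, and for Sall1 both were above, the nearest pair being equal to 2 decimals. With marked spots kept, the log2 difference was -0.26 ± 0.19 for Maf (95% interval -0.73 to 0.21, limma adjusted p = 0.381) and 0.24 ± 0.18 for Sall1 (95% interval -0.20 to 0.69, limma adjusted p = 0.393).

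Over all 9 members with marked spots kept, 6 had both KD arrays after tMCAO above both KD arrays before it, and 3 (Maf, Mef2a and Mef2c) had both below. Such separation was common on this slide, at 33.6% of all genes upward and 28.4% downward. The calls depended on single arrays. With any 1 KD array left out, fewer of the 4 members (Spi1, Irf8, Runx1 and Cebpa) passed, and fewer of all genes did too. The log2 differences of these 4 then ran from 1.33 to 3.07. The share of higher genes also depended on the scaling, since 2728 genes were called higher and 1732 lower here but 2053 higher and 2554 lower after quantile normalization, under which the 4 members passed with log2 differences of 1.36 to 2.15.

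**Figure D1:**
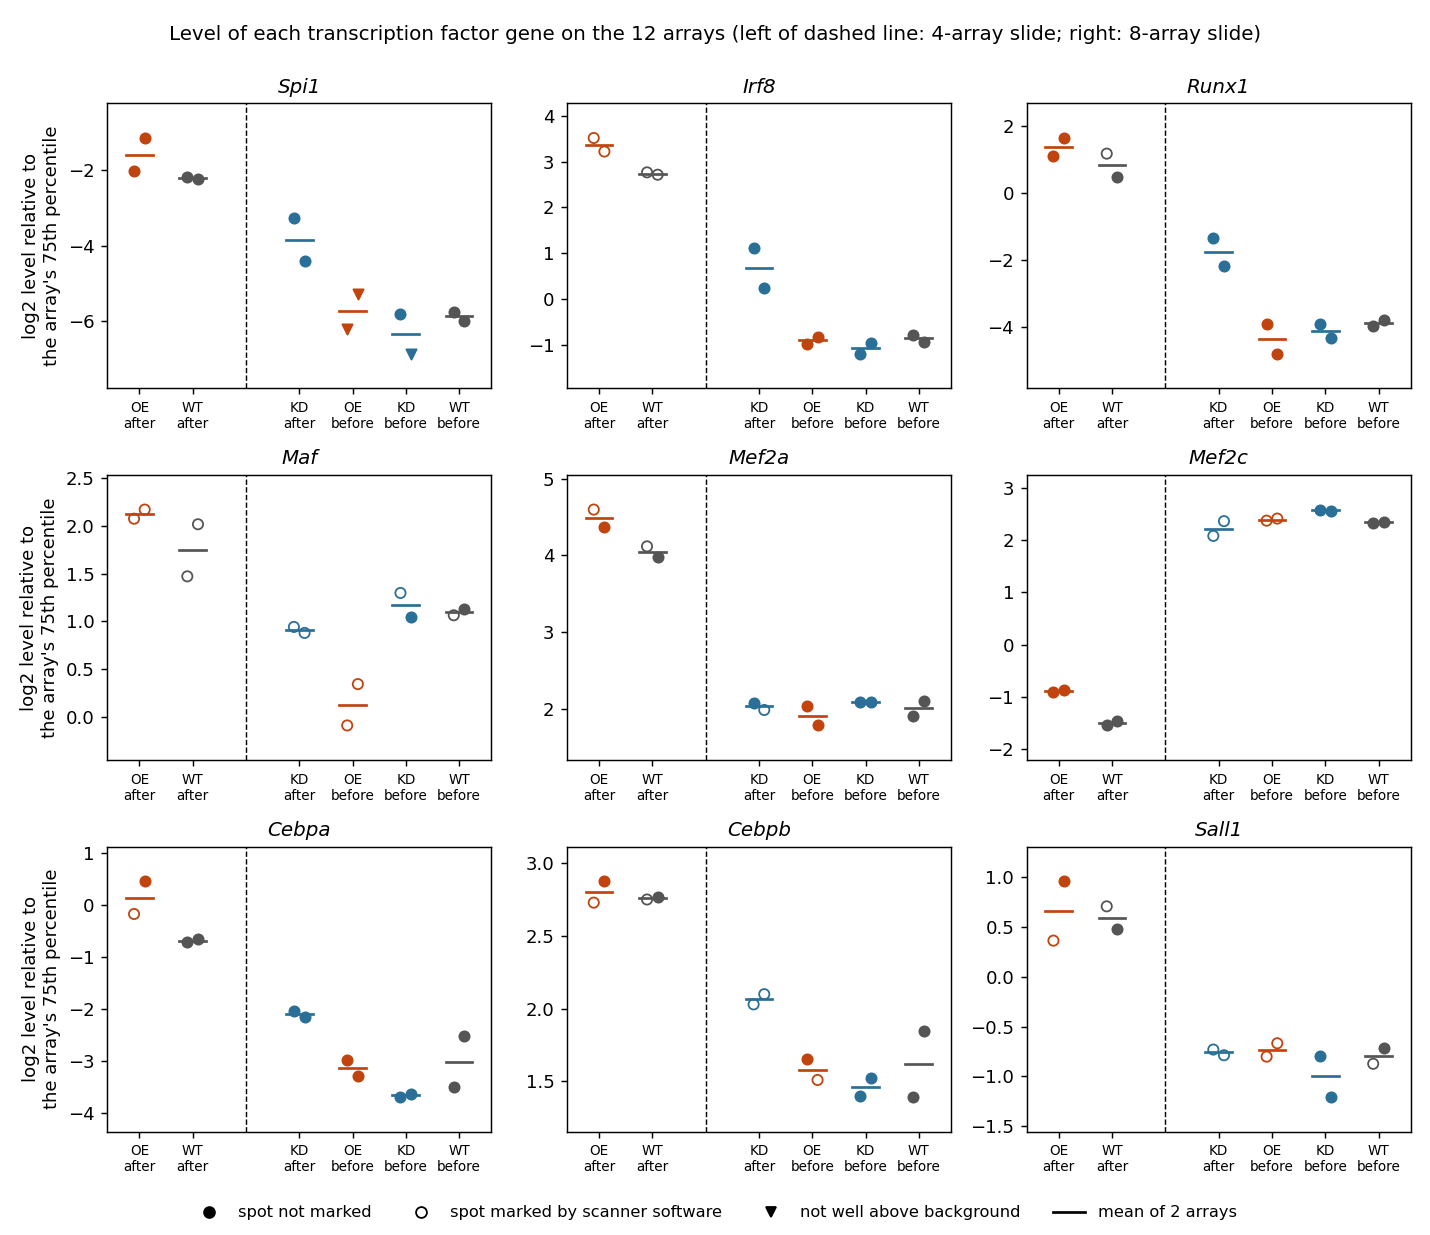
Level of each of the 9 genes on every array (vertical axes, log2 signal minus the array's 75th percentile), with the 4-array slide left of the dashed line and the 8-array slide right of it. Points are arrays, bars are means of 2 arrays, open points are marked spots and triangles are spots not well above background. Runx1, Mef2a and Mef2c are read at different probes on the 2 slides, and no level is to be compared across the dashed line. Spi1, Irf8, Runx1, Cebpa and Cebpb stand higher in KD after tMCAO than in every group before it, and Mef2a does not.

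The promoters of Irf8, Runx1 and Cebpa, which rose, and of Mef2a, which did not pass, are shown because the same factors are known to bind each other's genes. They are the 250 bases upstream of annotated transcript starts, 5′ to 3′ on the gene's strand, some of which lie inside the gene (the internal Irf8, the proximal Runx1 and the Mef2a window). They were taken from RefSeq's GRCm38.p6 annotation, in which 7 of the 9 members matched an entry. Capitals mark matches, on either strand, to the PU.1 motif GAGGAAG, the RUNX motif TGTGGT, the C/EBP motif TTGCNNAA, the STAT element TTCNNNGAA or the ZEB1 E-box CAGGTG.
Irf8 promoter, chr8:120736108-120736357 (+ strand): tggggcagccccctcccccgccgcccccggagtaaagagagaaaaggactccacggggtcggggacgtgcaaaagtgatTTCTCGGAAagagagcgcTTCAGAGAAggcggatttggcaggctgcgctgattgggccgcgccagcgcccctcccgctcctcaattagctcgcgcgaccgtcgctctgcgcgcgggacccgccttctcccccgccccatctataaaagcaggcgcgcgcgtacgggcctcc
Irf8 internal promoter, chr8:120738389-120738638 (+ strand): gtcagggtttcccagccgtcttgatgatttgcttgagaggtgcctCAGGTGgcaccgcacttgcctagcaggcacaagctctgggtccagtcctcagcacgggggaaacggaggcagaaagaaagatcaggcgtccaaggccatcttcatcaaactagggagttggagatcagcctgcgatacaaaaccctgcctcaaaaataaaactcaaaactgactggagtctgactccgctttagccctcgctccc
Runx1 distal promoter, chr16:92826075-92826324 (- strand): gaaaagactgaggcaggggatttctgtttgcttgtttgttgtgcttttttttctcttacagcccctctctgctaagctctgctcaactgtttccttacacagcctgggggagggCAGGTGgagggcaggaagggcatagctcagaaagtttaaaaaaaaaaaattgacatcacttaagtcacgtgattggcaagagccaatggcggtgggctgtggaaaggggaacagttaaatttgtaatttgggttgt
Runx1 proximal promoter, chr16:92697330-92697579 (- strand): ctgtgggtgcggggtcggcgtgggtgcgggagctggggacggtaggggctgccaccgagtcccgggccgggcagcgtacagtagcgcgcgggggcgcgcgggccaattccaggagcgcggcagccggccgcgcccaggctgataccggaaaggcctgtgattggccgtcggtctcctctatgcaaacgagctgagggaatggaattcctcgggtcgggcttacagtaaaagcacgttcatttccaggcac
Cebpa promoter, chr7:35119043-35119292 (+ strand): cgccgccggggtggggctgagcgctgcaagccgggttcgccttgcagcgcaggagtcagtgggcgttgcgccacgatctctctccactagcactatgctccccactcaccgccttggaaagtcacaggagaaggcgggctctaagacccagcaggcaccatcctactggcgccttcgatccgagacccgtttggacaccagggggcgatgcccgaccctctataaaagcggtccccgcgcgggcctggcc
Mef2a promoter, chr7:67372859-67373108 (- strand): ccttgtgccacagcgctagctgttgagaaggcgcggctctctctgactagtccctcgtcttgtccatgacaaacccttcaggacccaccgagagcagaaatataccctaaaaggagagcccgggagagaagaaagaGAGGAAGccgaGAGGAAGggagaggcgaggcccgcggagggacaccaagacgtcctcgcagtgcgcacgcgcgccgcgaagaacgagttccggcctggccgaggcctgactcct
The first Irf8 window holds 2 STAT elements, a motif known to carry interferon signals, of which 7.02% of 32851 annotated promoters of this length hold at least 1. The internal Irf8 window and the distal Runx1 promoter each hold 1 E-box of the kind ZEB1 binds, and 17.22% of promoters hold at least 1. The proximal Runx1 window holds none of the motifs searched. The Cebpa promoter holds none of them. The Mef2a promoter holds 2 PU.1 motifs, of which 10.61% of promoters hold at least 1, and the RUNX and C/EBP motifs occur at least once in 14.05% and 9.56%. Such matches describe letters in these windows only.

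Some relatives of the members rose in KD cells after tMCAO. Over all genes tested in this comparison 11.1% were called higher and 7.03% lower, the shares to hold beside each list count. Of the 8 further ETS factors listed, 4 had a test and 1 rose, Fli1, an ETS factor of blood and endothelium (log2 difference 1.87 ± 0.19, limma adjusted p = 0.00704, 1 array against 2). Of 6 interferon regulatory factors tested 1 rose, Irf9, the DNA-binding part of the type I interferon complex (1.30 ± 0.24, adjusted p = 0.0193). Cbfb, the partner that RUNX1 needs to bind DNA well, rose by 0.87 ± 0.16 (adjusted p = 0.0206), the 1 of 3 RUNX genes to pass, and Runx3 and Runx2 did not, at 1.29 ± 0.38 and -0.79 ± 0.19. In the C/EBP family 1 of 3 rose, Cebpd (1.68 ± 0.27, adjusted p = 0.0290, 1 array against 2), another acute-phase factor. Sall3 was the 1 of 2 SALL relatives to rise (0.92 ± 0.19, adjusted p = 0.0274). None of 3 MEF2 relatives passed. The 1 MAF relative tested, Mafk, did not pass either (1.18 ± 0.27, limma adjusted p = 0.0564, 1 array against 2), but with marked spots kept Maff rose by 2.48 ± 0.61 (limma adjusted p = 0.0419) and Mafk by 1.40 ± 0.24 (limma adjusted p = 0.0164), while Maf did not pass.

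Other myeloid factors gave 3 higher genes of 11 tested with a median of 0.22. They were Tfec, an MiT-family factor of macrophages, Ikzf1, the lymphoid and myeloid factor Ikaros (1.43 ± 0.16, limma adjusted p = 0.00901, 1 array against 2), and Nr1h3, the liver X receptor alpha (1.06 ± 0.16, adjusted p = 0.0125). Tfec was not well above background in either KD array before tMCAO, so it is given only as a bound of at least 18.3-fold higher. Its place among the 3 rests on a fitted difference from those dim spots, which does not test that bound. Among the signals that sustain the lineage, 2 of 6 rose: Csf2rb, the shared beta chain of the GM-CSF and interleukin-3 receptors, by 3.39 ± 0.28 (adjusted p = 0.00365), and Tgfb1, the ligand upstream of SALL1, by 2.15 ± 0.29 (adjusted p = 0.00920). Csf1r, the receptor microglia need to survive, differed by 0.53 ± 0.16 and did not pass (adjusted p = 0.0785, 1 array against 2).

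Genes known to be driven by these factors were examined beside them. Of 12 PU.1 and IRF8 target genes 9 had a test and 5 rose, with a median of 1.41. The phosphatase gene Ptprc (CD45) rose by 2.26 ± 0.42 (limma adjusted p = 0.0208), the Fc receptor gene Fcgr3 by 1.60 ± 0.18 (adjusted p = 0.0140, 1 array against 2), the calcium-binding protein gene Aif1 (IBA1) by 1.17 ± 0.18 (adjusted p = 0.0274, 1 array against 2) and Cx3cr1, the gene of the receptor used for the enrichment, by 1.41 ± 0.33 (adjusted p = 0.0362). The fifth was the lysosomal gene Cd68 (adjusted p = 0.00558). All 3 c-MAF linked genes with a test rose, among them the complement genes C1qc (1.60 ± 0.19, 1 array against 2) and C1qa. Maf itself had no test there, and with marked spots kept it did not pass. Of 5 C/EBP target genes tested 1 rose, the acute-phase gene Lcn2 (2.99 ± 0.45, adjusted p = 0.0123). Keeping the marked spots, 4 of 9 passed, Arg1, Il6, Lyz2 and Lcn2, Il6 being not well above background in the second KD array before tMCAO. Of 7 SALL1-linked homeostatic genes tested 1 rose, Olfml3 (1.94 ± 0.36, adjusted p = 0.0203), and the median of 0.19 was below that of the other target lists.

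Markers of other cells moved beside these genes. Of 8 monocyte and border-macrophage markers tested 5 rose, with a median of 1.85: Chil3 by 3.23 ± 0.83 (limma adjusted p = 0.0450), Ccr2, the monocyte chemokine receptor, by 3.22 ± 0.85 (adjusted p = 0.0493), Pf4, Lyve1 and Cd163, which is also in the c-MAF linked list. All 10 were well above background on all 8 arrays, and their summed level was 4.60 to 4.68 in KD arrays after tMCAO, against 3.20 to 3.24 before it. Endothelial and mural markers gave 3 higher genes of 7 tested, Pecam1 (1.48 ± 0.15, adjusted p = 0.00498), Cldn5 (0.87 ± 0.20, adjusted p = 0.0427) and Pdgfrb (0.84 ± 0.19, adjusted p = 0.0315), with a summed level of 4.36 to 4.37 against 3.83 to 3.89. The astrocyte gene Gfap rose by 2.10 ± 0.23 (adjusted p = 0.00831, 1 array against 2), 1 of 6 astrocyte markers tested, and Mog was the 1 of 2 oligodendrocyte markers to rise, while 2 of 5 neuron markers fell, Slc17a7 by 1.23 and Syp by 0.68 on the log2 scale. The summed neuron level was 5.77 to 5.96 after tMCAO, against 6.15 to 6.18 before it. None of 5 neutrophil markers passed (6 of 7 were well above background in each KD array after tMCAO and 7 of 7 before it), and their summed level was 2.97 to 3.21 against 2.39 to 2.56. Of 9 lymphocyte markers Cd79b rose and Cd4 fell. Cd3e passed the fit as lower, but it was not well above background in either KD array after tMCAO and its level before it was too dim to bound a change. The summed lymphocyte level was -0.64 to -0.01 after tMCAO against -0.22 to -0.06. Of 3 erythroid markers tested Alas2 and Slc4a1 passed the fit as lower. Slc4a1 was not well above background in either KD array after tMCAO, nor was Alas2 at its 1 unmarked spot there, so neither gives a fold, with 2 to 3 of 4 well above background after tMCAO and all 4 before it. The part of these cells in the members' rise was not tested.

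Position on the slide moved with the groups. The KD arrays after tMCAO lay in row 1 and columns 1 and 2, the KD arrays before it in row 2 and columns 3 and 4, so row and side cannot be told apart from the occlusion in this comparison. The WT arrays before tMCAO lay in the same row as KD after tMCAO, and the OE arrays before it in the same columns. No other group shared both row and columns with KD after tMCAO. After tMCAO on the 4-array slide, both WT arrays lay in row 1 and both OE arrays in row 2. Before tMCAO, WT differed from KD in row, WT from OE in row and columns, and OE from KD in columns. In none of the 5 comparisons can position thus be told apart from the group. The groups with more marked spots and wider negative controls were those in columns 1 and 2. The part of position in the differences was not tested.

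**Figure D2:**
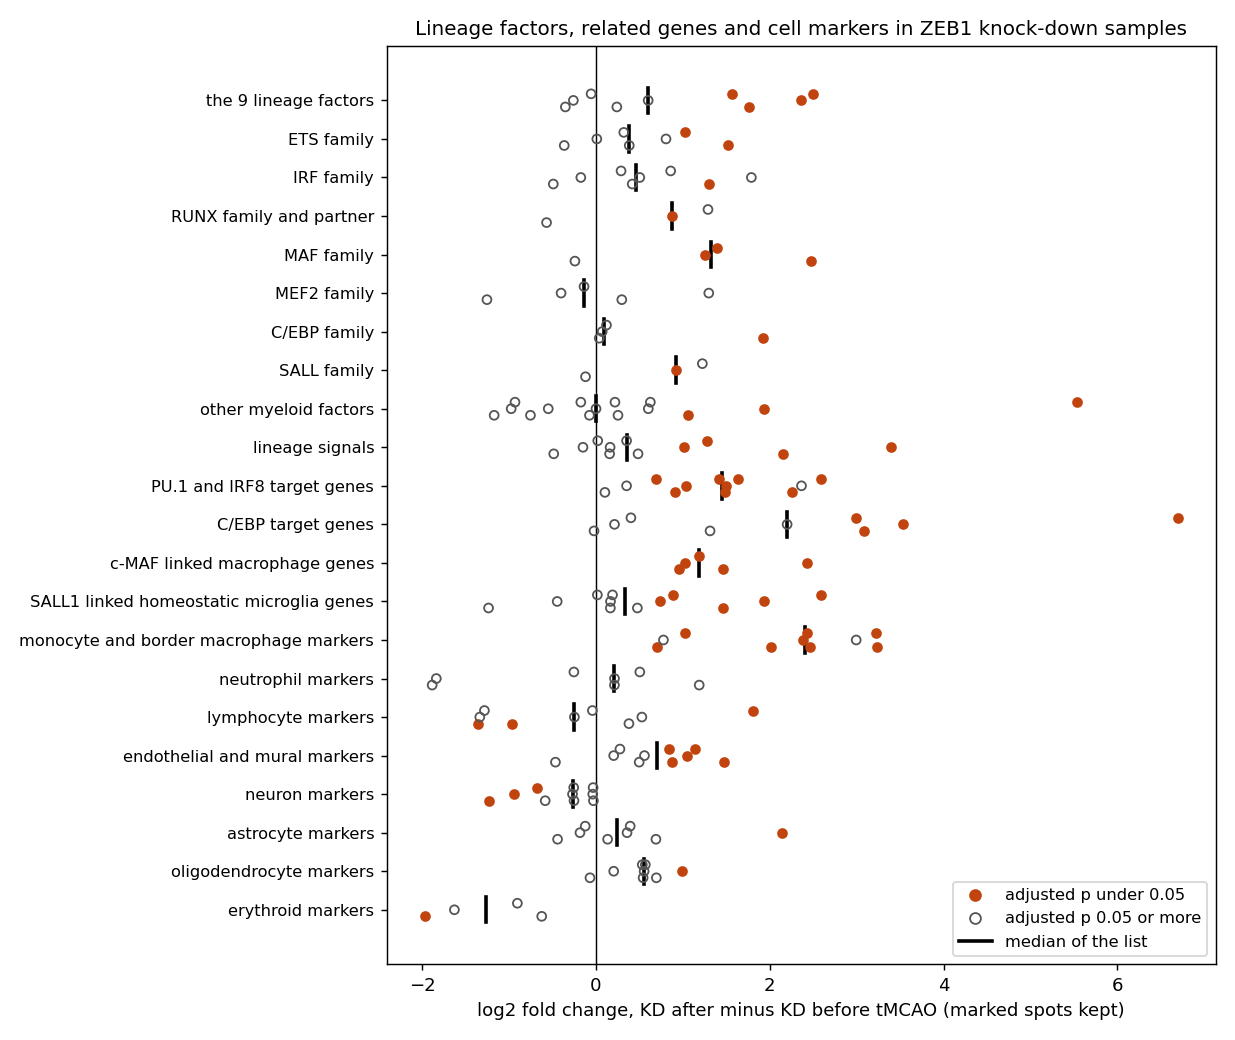
Log2 difference of KD after minus KD before tMCAO (horizontal axis, marked spots kept) for the 9 lineage factors, their relatives, target genes and cell markers, with a list on each line. Points are genes, filled where the adjusted p was under 0.05, and the bar is the list's median. The 9 factors' median is 0.60, the monocyte and border-macrophage list lies further right and the neuron list lies below 0. Genes not well above background before tMCAO, such as Tfec at 5.53, are plotted at their fitted value.

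After tMCAO, OE cells were compared with WT cells on the 4-array slide, which asks how the genotypes differ once the stroke has occurred. No lineage factor passed the test. All 7 members that could be tested had positive differences, from 0.11 for Cebpb to 1.14 for Cebpa, with a median of 0.62 against -0.11 over all genes, and the sign of each held under every alternative processing. In this comparison 2.34% of 22072 genes passed, 1.59% higher and 0.748% lower. Keeping the marked spots gave 0 of 9 members, where 3.20% of all genes passed, 1.95% higher and 1.25% lower. Without adjustment, 3 of the 7 (Cebpa, Mef2c and Runx1) were under 0.05, where 21.1% of all genes were. Irf8 and Maf had every spot marked.

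Cebpa lay at -0.17, a marked spot, and 0.46 in OE arrays, against -0.71 and -0.65 in WT arrays. Both OE arrays were above both WT arrays, and the log2 difference, from 1 array against 2, was 1.14 ± 0.31 (95% interval 0.39 to 1.90, limma adjusted p = 0.118). With the marked spot kept it was 0.83 ± 0.28 (adjusted p = 0.147). Mef2c lay at -0.90 and -0.86 in OE arrays, against -1.55 and -1.47 in WT arrays. None of its spots was marked and the pairs were tight and apart, with a log2 difference of 0.63 ± 0.23 (95% interval 0.07 to 1.18, limma adjusted p = 0.192).

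Spi1 lay at -2.03 and -1.16 in OE arrays, against -2.18 and -2.25 in WT arrays. The second OE array made most of the difference of 0.62 ± 0.33 (95% interval -0.17 to 1.40, limma adjusted p = 0.337), which was 0.18 without that array. Irf8 lay at 3.51 and 3.22 in OE arrays, against 2.76 and 2.71 in WT arrays, all marked, and with the marked spots kept the difference was 0.63 ± 0.23 (95% interval 0.07 to 1.18, limma adjusted p = 0.178). Runx1 overlapped at its brighter probe, at 1.11 and 1.64 in OE arrays against 1.18 (marked) and 0.47 in WT arrays, and its difference was 0.90 ± 0.36 with the marked spot out (limma adjusted p = 0.230, 2 arrays against 1). At its second probe, at -1.27 and -0.57 (marked) in OE arrays against -2.14 and -1.91 in WT arrays, the groups were apart. With the marked spot out, the difference there was 0.75 ± 0.33 (1 array against 2) and did not pass.

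Mef2a lay at 4.60 (marked) and 4.37 in OE arrays, against 4.12 (marked) and 3.98 in WT arrays, and at its second probe at -1.71 and -1.59 against -3.73 and -2.28. The OE arrays were higher at both probes, by 0.39 ± 0.39 (1 array against 1) and 1.35 ± 0.45, and neither passed (limma adjusted p = 0.623 and 0.143). Maf lay at 2.08 and 2.17 in OE arrays, against 1.47 and 2.02 in WT arrays, all marked. Cebpb differed by less than its spread, at 2.73 (marked) and 2.87 in OE arrays against 2.75 (marked) and 2.77 in WT arrays. Sall1 overlapped, at 0.36 (marked) and 0.96 in OE arrays against 0.71 (marked) and 0.48 in WT arrays. Over all 9 members with marked spots kept, 6 had both OE arrays above both WT arrays (Cebpa, Irf8, Maf, Mef2a, Mef2c and Spi1) and none had both below, where 21.6% of all genes lay above and 33.8% below.

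Among related genes after tMCAO, 0 of 5 ETS, 0 of 5 IRF and 0 of 3 C/EBP relatives passed, and the MAF, MEF2, SALL and RUNX relatives gave no call either. With marked spots kept, the interferon factors Irf7 (3.89 ± 0.34, limma adjusted p = 0.0060) and Irf1 (1.26 ± 0.24, adjusted p = 0.0439) rose in OE arrays, 2 of 8. Of 10 other myeloid factors tested Myb, a progenitor factor, rose (1.67 ± 0.31, adjusted p = 0.0482). Of 8 PU.1 and IRF8 target genes Cybb, the catalytic subunit of the phagocyte oxidase, rose (1.88 ± 0.32, adjusted p = 0.0364), while the list's median was -0.11. Elane, a neutrophil elastase gene in both the C/EBP target and neutrophil lists, rose (2.01 ± 0.37, adjusted p = 0.0463). Il10, a cytokine gene linked to c-MAF, was not well above background in WT arrays. The OE arrays alone carried it through the filter, so it is given only as a bound of at least 7.30-fold higher. None of the SALL1-linked homeostatic genes passed (4 tested, median -0.06).

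Of other cell types, no monocyte and border-macrophage marker passed (7 tested), all 7 being positive with a median of 0.69, and their summed level was 5.27 in both OE arrays against 4.70 to 4.94 in WT arrays. The endothelial and mural markers were lower in OE arrays in all 8 tested, none past the threshold, with a median of -1.06 and a summed level of 3.42 to 3.48 against 4.25 to 4.39. Cldn5, Des and Acta2 fell once marked spots were kept. Neuron markers summed to 5.29 to 5.73 in OE arrays against 5.89 to 5.94 in WT arrays, and none of 5 passed. All 9 lymphocyte markers tested were positive and none passed, with a median of 0.61 and a summed level of 3.79 to 4.65 in OE arrays against 3.66 to 3.73 in WT arrays. Astrocyte markers summed to 5.62 to 5.64 against 5.82 to 5.83, oligodendrocyte markers to 4.37 to 4.47 against 4.71 to 4.76, and neutrophil markers to 6.29 to 6.31 against 6.06 to 6.23. The part of these cells in the members' differences was not tested.

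Before tMCAO the 3 genotypes were compared on the 8-array slide. No member differed past the threshold in any of the 3 comparisons, and no gene at all did: 0% of 25162 genes for OE against WT, 0% of 30293 for KD against WT and 0% of 25167 for OE against KD. At an unadjusted p under 0.05 limma gave 2929, 2653 and 3715 genes, and no member at the probe that stands for it. The comparisons share arrays, and their values are given side by side only.

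For the factors that were higher in KD cells after tMCAO, no difference between genotypes before it passed. Irf8 differed by -0.04 ± 0.29 in OE against WT, by -0.22 ± 0.29 in KD against WT and by 0.18 ± 0.29 in OE against KD. Runx1 differed by -0.48 ± 0.39, -0.24 ± 0.39 and -0.24 ± 0.39 in the same order. No exact difference is given for Spi1, since both OE arrays and the second KD array before tMCAO were not well above background. Cebpa differed by -0.65 ± 0.32 in KD against WT (95% interval -1.42 to 0.12, limma adjusted p = 0.661), where both KD arrays lay below both WT arrays.

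Maf set the OE arrays apart before tMCAO. It lay at -0.09 and 0.34 in OE arrays, against 1.30 (marked) and 1.04 in KD arrays and 1.07 (marked) and 1.13 in WT arrays. Both OE spots were marked, so the test had no value for them. With marked spots kept, Maf was lower in OE by 0.97 ± 0.19 on the log2 scale against WT (limma adjusted p = 0.286, unadjusted p = 0.0020) and by 1.04 ± 0.19 against KD (limma adjusted p = 0.225, unadjusted p = 0.0014), and neither passed. Between KD and WT it differed by 0.07 ± 0.19 with marked spots kept.

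None of the remaining members passed between genotypes before tMCAO. Mef2a differed by -0.10 ± 0.16 in OE against WT, by 0.08 ± 0.16 in KD against WT and by -0.18 ± 0.16 in OE against KD. At its second probe both OE arrays, at -1.43 and -1.32, lay below both KD arrays, at -0.87 and -1.01, by 0.43 ± 0.16 on the log2 scale (unadjusted p = 0.0380, adjusted p = 0.310 over all probes, limma). Mef2c lay at 2.38 and 2.42 in OE arrays, both marked, 2.59 and 2.56 in KD arrays and 2.33 and 2.36 in WT arrays, so that the KD arrays were the highest, by 0.23 ± 0.14 over WT (limma adjusted p = 0.770). Cebpb overlapped between all 3 genotypes and differed by 0.03 ± 0.26 in OE against WT (1 array against 2) and by -0.16 ± 0.21 in KD against WT. Sall1 lay at -0.80 and -0.67 in OE arrays, both marked, -0.79 and -1.21 in KD arrays and -0.87 (marked) and -0.72 in WT arrays, so that the second KD array was the lowest and the others lay close together. The groups were also read for separation with marked spots kept. Both OE arrays lay above both WT arrays for Mef2c and below them for Maf, where 22.8% of all genes lay above and 24.5% below. Both KD arrays lay above both WT arrays for Mef2c and below them for Cebpa and Irf8, where 13.9% of all genes lay above and 30.0% below. Both OE arrays lay above both KD arrays for Cebpa and below them for Maf, Mef2a and Mef2c, where 31.8% of all genes lay above and 19.4% below.

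**Figure D3:**
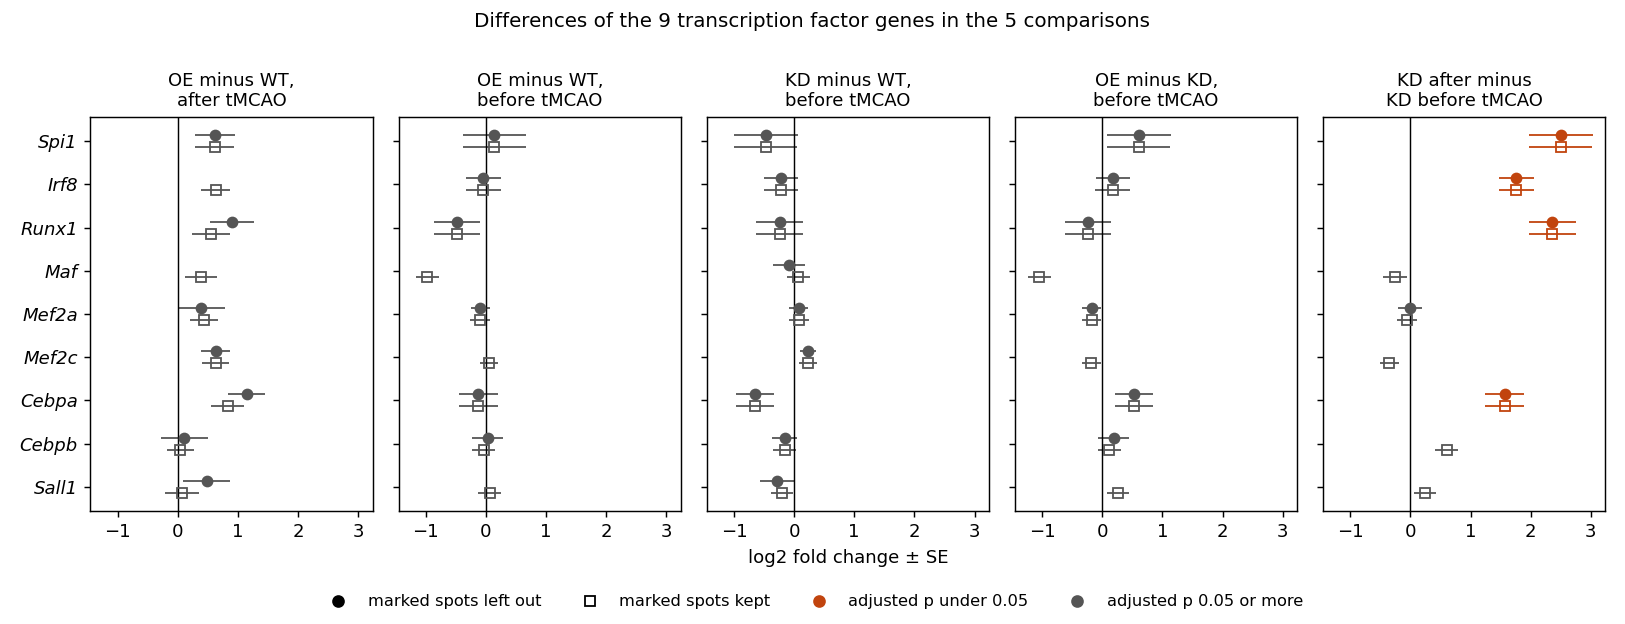
Log2 fold change with its SE (horizontal axes) of each of the 9 genes in the 5 comparisons, with marked spots left out (circles) and kept (squares). Orange marks an adjusted p under 0.05, reached by Spi1, Irf8, Runx1 and Cebpa in KD after against KD before tMCAO. Members without a circle had no unmarked spot in one group, and all OE minus WT values after tMCAO lie right of 0.

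Across the 8 arrays of the larger slide, genes were ranked by how closely their levels resembled each member's, by Pearson's r as a description. The ranking covered 15738 genes well above background on all 8 arrays, with marked spots kept. For Maf, Mef2c and Sall1, both spots in KD after tMCAO and both in OE before it were marked. For Cebpb both spots in KD after tMCAO were. Irf8 was followed by Fhod1 (r = 0.998) and Pdia5 (r = 0.997), and Runx1 by C5ar2 and Gmnn (r = 0.990 each). Cebpa and Cebpb each had the other among their 2 nearest genes (r = 0.973), Cebpa with Dok2 (r = 0.968) and Cebpb with 9430038I01Rik (r = 0.981). The 8 points share a slide, and for Irf8, Runx1, Cebpa and Cebpb the KD arrays after tMCAO stood above the other 6. Mef2c was nearest to Glyctk (r = 0.995) and Arntl (r = 0.976), Maf to Zfp995 (r = 0.989) and Zfp146 (r = 0.978), Sall1 to Kif5b (r = 0.973) and Ezh2 (r = 0.938), and Mef2a to Slf2 (r = 0.958) and Rev3l (r = 0.874). Spi1 was not ranked, being below that level on some arrays.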

How the data were processed

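Per the file headers, the scanner files held intensity values of Agilent single-colour arrays extracted with Feature Extraction 11.5.1.1 (9.1 per the submitters' processing notes), background-subtracted by that software. They also held marks in the deposited files for spots not well above background, non-uniform or outlying. The authors' deposited value tables held log2 values that equalled the log2 scanner signal minus a constant for each array. Their medians were -3.75 to -3.04, and in KD after tMCAO each column matched the other replicate's scanner file, so they served only as an alternative. Levels were log2 of the processed signal minus the array's 75th percentile (1078 to 1515 units on the 4-array slide, 2566 to 3702 on the 8-array slide). Control and marked spots were left out, spots of a probe averaged, and a probe kept if all arrays of any 1 group on its slide showed it well above background. The probe of highest mean level stood for a gene. Spots well above background made up 60.4% to 73.9% of an array, and marked spots 1.03% to 23.7%. Probes were named through RefSeq accessions, which named 48.1% of the probes on the 4-array design and 59.6% on the 8-array design.

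The groups of a slide entered 1 linear model (lmFit, then eBayes; limma 3.58.1 under R 4.3.3), with two-sided p-values adjusted by Benjamini-Hochberg over all genes and a threshold of 0.05. Errors are SE unless stated. Bounds ("at least") set the brighter group's mean against the higher, per array, of the lowest signal well above background and the dim probe's own signal. The number of arrays, 2 a group, limits the precision. Named genes were all 9 members, Zeb1, up to 4 calls of a list by largest change (2 genes where a list had no call) and the 2 genes most like each member. Aif1, Csf1r, Runx2 and Runx3 were added after their values were seen. The members and lists were chosen with earlier results of these data known. Replicate numbers were shared by the groups, but the labels do not say that they pair samples. A gene of the lists is not reported here.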

Additional observations from a re-analysis of the deposited data

Results flagged for a closer look

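Maf differed between OE and WT by 0.38 on the log2 scale after tMCAO and by -0.97 before it, with marked spots kept. Both OE arrays lay above both WT arrays after tMCAO, and both lay below them before it. The 2 values come from different slides and array designs, 7 of the 8 spots behind them were marked, and the difference between them was not tested.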

How the results depend on the processing

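Of the members' log2 differences recomputed under other settings, 353 kept their direction and side of the threshold, 3 lost their call and 12 turned sign. Of those with 1 array left out, 95 kept both, 11 lost their call and 12 turned sign. Without the filter on dim probes, 2 members passed in KD after against KD before tMCAO in place of 4 (Spi1 and Cebpa had limma adjusted p = 0.0532 each), and with only the 2 groups compared in the fit Spi1 did not pass (limma adjusted p = 0.0591). With 1 array left out, fewer members passed, and fewer of all genes did too. Among all genes, that comparison gave 4460 calls, against 7442 after normexp on the median signal (chosen after seeing the data), 2118 without the filter, 2310 with only 2 groups and 825 to 3789 with 1 array left out. OE against WT after tMCAO gave 516 calls, against 895 with marked spots kept, 328 after quantile normalization, 0 without the filter, 940 with every probe tested, 874 with eBayes trend, 777 from the value tables and 39 to 1103 with 1 array left out. Before tMCAO, quantile normalization gave 6 calls for OE against WT, 1 for KD against WT and 6 for OE against KD, and leaving out 1 array gave 0 to 2 for OE against WT and 0 to 3 for KD against WT. Signs turned for Mef2a in KD after against before tMCAO, to 0.0199 after normexp, 0.0675 after quantile normalization and 0.0674 with the 75th percentile over spots above background on all arrays. The other reversals were in small differences before tMCAO. In OE against WT, normexp gave Irf8 0.0697 and Cebpa 0.0205, the mean over probes gave Runx1 0.16, and Cebpb was -0.0382 with marked spots kept and -0.0239 in the value tables. In KD against WT, the mean over probes gave Runx1 0.20, and Maf was 0.0719 with marked spots kept and 0.0654 in the value tables. In OE against KD, normexp gave Runx1 0.0154. With 1 array left out, OE against WT ran from -0.32 to 0.60 for Spi1, -0.13 to 0.0422 for Irf8, -0.22 to 0.0325 for Mef2a, -0.62 to 0.37 for Cebpa and -0.19 to 0.26 for Cebpb. KD against WT ran from -0.99 to 0.0532 for Spi1, -0.018 to 0.18 for Mef2a and -0.38 to 0.0693 for Cebpb, and OE against KD from -0.68 to 0.20 for Runx1. The Spi1 ranges rest in part on spots not well above background, so they show the turn of sign and no exact difference. The cause of the reversals was not tested. The median of all genes in KD after against before tMCAO was 0.04 as reported, 0.21 after normexp, -0.10 after quantile normalization and 0.39 without the filter. In OE against WT after tMCAO it was -0.11 as reported, -0.27 after normexp and 0.0185 without the filter. Before tMCAO it was -0.01 as reported, 0.11 after normexp and 0.13 without the filter in OE against WT, and 0.10, 0.22 and 0.28 in that order in OE against KD. With the replicate number as a block, 444 genes passed in OE against WT after tMCAO and 4686 in KD after against before tMCAO, and the count of members was unchanged in all 5 comparisons. Same-numbered arrays deviated together with correlations of 0.035 to 0.173, over 2 pairs each. With 2 arrays a group, these values cannot decide whether the numbers pair samples. A block for the position on the slide was not run, since position and group cannot be told apart, and normexp on the mean signal was not run, the files used here holding the median signal. Dim signal limits Spi1, which was not well above background on 3 of the 8 arrays of its slide.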
